A study of Mus musculus with 120 samples.

Results

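The actin cytoskeleton genes are 40 genes that encode actin and the proteins that bind, nucleate, cap, cross-link or pull on it, chosen by name for their place in the pathway, with earlier results of these data known. All 40 were found by Ensembl identifier among the 46078 identifiers of the count files, and 39 of them had a read in at least 1 cell. The 40 hold 2 cytoplasmic actins, 6 proteins of monomer binding and filament turnover, 9 genes of the Arp2/3 complex, 6 of nucleation promotion and elongation, 6 of capping, severing and coronin function, 3 ezrin-radixin-moesin (ERM) linkers, 4 of non-muscle myosin II and 4 small GTPases.

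They were measured in 120 group 2 innate lymphoid cells (ILC2) of wildtype C57BL/6 mice, with 1 RNA sequencing library per cell. The cells were sorted by c-Kit and Sca-1, without lineage markers, from the mesentery (fat tissue) of 20 mice that was pooled, so no animal can be assigned to a cell, and were cultured for months before use in medium that held IL-2. Live imaging of secretion assigned each stimulated cell to a state by the release of 1 cytokine, here called the index, which was interleukin (IL) 13 for 60 cells and IL-5 for the other 60. Per index there were 5 pre-stimulation cells, whose treatment is given as none, and 11 cells each of 5 states that were all incubated with IL-2/IL-33. Those were transition cells recovered 30, 60 or 90 min after the onset of secretion, activated cells (secreting) and silent cells (not secreting). Cells of those 5 states share the stimulus, and pre-stimulation cells lack it but had IL-2 in culture.

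Actin exists as monomers and as filaments, and lymphocytes move, form contacts and secrete by building and dismantling filaments at the cell cortex. Thymosin beta 4 (Tmsb4x) holds monomers in reserve, profilin 1 (Pfn1) hands them to growing filaments, cofilin severs old filaments, and the Arp2/3 complex starts new branches when activated by proteins of the WASP and WAVE families under the GTPases Cdc42 and Rac. Myosin II pulls on filaments under RhoA, and the ERM proteins tie the filaments to the plasma membrane. The genes of beta-actin (Actb) and gamma-actin (Actg1) are known targets of serum response factor, which binds the CArG box and is held inactive when its cofactors are bound by free actin monomers.

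The CArG box (CC, then 6 bases that are each A or T, then GG) was searched on both strands in RefSeq promoters of build GRCm38.p6, from 250 bases before to 50 bases after each start, of the 35 members with an entry. It stood in 3 of them (8.57%) and in 488 of 27025 genes (1.81%). The stretches around these 3 boxes are shown, with the box in capitals, because Actg1 and Myl6 are among the members with the most read data below. Actg1 (chr11:120348446-120348745, minus strand) has the box with its first base 90 bases before the start, Myl6 (chr10:128492960-128493259, minus strand) 50 bases before and Arpc4 (chr6:113377863-113378162, plus strand) 250 bases before, where the promoter window itself begins.
Actg1: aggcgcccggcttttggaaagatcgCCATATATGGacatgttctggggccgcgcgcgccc
Myl6: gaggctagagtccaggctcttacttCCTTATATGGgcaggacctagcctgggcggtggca
Arpc4: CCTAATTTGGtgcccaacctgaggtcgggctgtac
The letters TGANTCA, which bind the AP-1 family and do not overlap the CArG box, stood in 2 of the 35 (5.71%, Ezr and Myl12a) and in 8.97% of genes. Actb, Arpc5l, Coro1b, Rac1 and Rac2 had no entry. A match is a description of the letters and no evidence of binding.

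Gene reads per cell ranged from 65 to 785198 with a median of 254001, and group totals from 964383 to 3732032. The counts of a group's cells were added up and expressed per 1000000 gene reads (CPM). Ranges over cells, given as lowest, median and highest, use the 114 cells with at least 84667 gene reads. As no culture or animal is named for any cell, each group counts as 1 sample, no test was made, and the intervals cover counting error only. The 5 pre-stimulation cells of an index all lie on the first of its 2 title dates, and every other state has 5 cells on the first and 6 on the second. Libraries were pooled in sets of 5 or 6, but the pool of a cell is not given. State and pool within a date may therefore coincide, and index and date cannot be told apart. CPM are relative to all other genes, so a lower share and less actin RNA per cell cannot be told apart. ILC2 markers were present in every group (11 or 12 of 12 genes), with summed levels of 9955 to 12906 CPM in pre-stimulation and transition cells and of 5754 to 7647 CPM in activated and silent cells. The T cell list (6 genes) summed to 1128 and 1195 CPM in the pre-stimulation cells, to 258.5 and 20.3 CPM at 30 min, to 523 and 28.4 CPM in silent cells and to 0 in activated cells, in the IL-13 and IL-5 index in turn. Nearly all of it was Cd3g (5478 reads in 26 cells), with Cd4 and Cd8a at 0. Reads of the 4 muscle actins and of the B cell, fibroblast and adipocyte lists were at 0 in all cells, the myeloid list had 143 reads of Adgre1 in 1 cell, and the mast cell list lay between 0 and 326 CPM (Fcer1a 2904 reads in 15 cells, Cpa3 35 reads in 2). The part of these lists in the results was not tested. Il9 alone took 4.43% and 6.05% of the reads of activated cells and at most 0.541% in any other group.

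The summed share of all gene reads that fell in the 40 genes was lowest in activated cells in both indexes, also with any 1 cell of any group left out. In the IL-13 index the summed share was 6.33% before stimulation, 7.71% at 30 min, 7.90% at 60 min, 5.92% at 90 min, 2.67% in activated and 4.39% in silent cells. For the IL-5 cells it was 5.60%, 5.71%, 5.79%, 4.04%, 2.31% and 4.10% in the same order. The steps from pre-stimulation to 30, 60 and 90 min were smaller than the SD between pre-stimulation cells in both indexes (2.47 and 1.78 percentage points). That SD is the spread of single cells and not the uncertainty of a sum over cells. Medians over cells were 5.88%, 7.33%, 7.82% and 5.69% from pre-stimulation to 90 min for IL-13 and 5.09%, 5.82%, 5.45% and 3.85% for IL-5, so 30 and 60 min changed places for IL-5 between sums and medians. The IL-5 sum at 60 min was 5.27% without 60 min cell 2, below that at 30 min. For IL-13 the pre-stimulation sum was 5.07% without cell 1, below that at 90 min, and the IL-5 sum of silent cells was 3.61% without silent cell 10, also below that at 90 min.

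The 5 pre-stimulation cells of the IL-13 index had shares of 10.0%, 3.86%, 4.05%, 5.88% and 6.18%, and those of the IL-5 index 5.26%, 4.51%, 5.09%, 8.52% and 3.98%. The lowest, median and highest cell at 30 min were 4.35%, 7.33% and 12.9% in the IL-13 index and 3.92%, 5.82% and 7.51% in the IL-5 index. Activated cells lay at 1.20%, 2.75% and 5.82% in the IL-13 index and at 1.08%, 2.50% and 3.47% in the IL-5 index. All 11 activated cells of the IL-5 index were below every pre-stimulation cell and every 30 min cell, and in the IL-13 index 10 of 11 were below every cell of each of those groups. Silent cells lay between, at 2.34%, 4.31% and 5.98% in the IL-13 index and at 2.53%, 3.49% and 9.99% in the IL-5 index, where 8 of 10 cells lay below all 5 pre-stimulation cells and 1 stood above them. For IL-13, 3 of 11 silent cells lay below all 5 and none above.

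**Figure D1:**
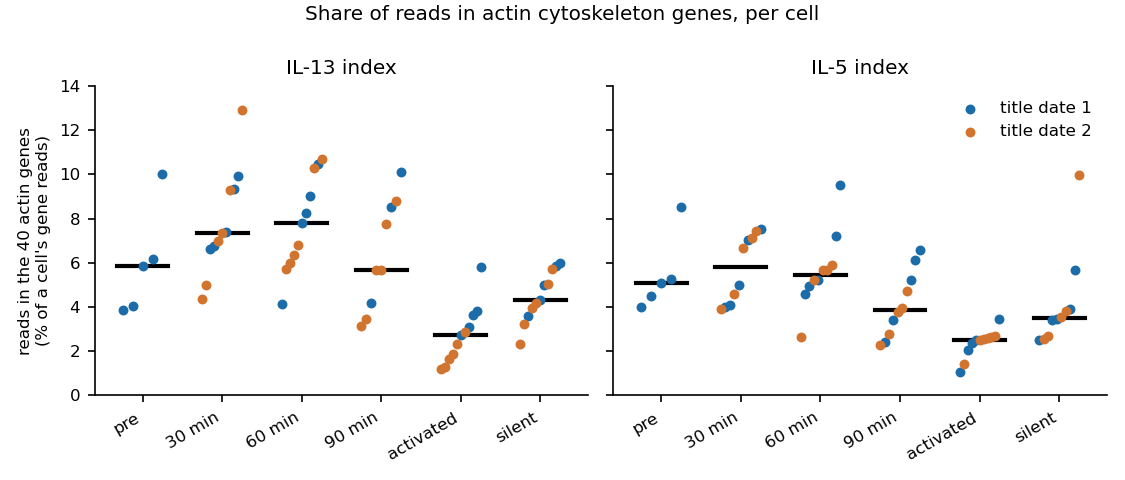
Share of gene reads in the 40 actin cytoskeleton genes (percent) in each of the 114 cells with enough reads, by state, for the IL-13 index and the IL-5 index. Points are cells coloured by title date and bars are medians, which fall to 2.75% and 2.50% in activated cells.

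As a log2 ratio of the summed shares, activated against 30 min cells gave -1.53 (95% counting interval -1.54 to -1.52) for IL-13 and -1.30 for IL-5, and leaving out any 1 cell moved these within -1.68 to -1.42 and -1.37 to -1.22. Within the first and the second title date the values were -1.06 and -1.97 in the IL-13 index and -1.31 and -1.30 in the IL-5 index. Activated against silent cells gave -0.72 and -0.83, and within dates -0.42 and -1.06 in the IL-13 index and -0.85 and -0.84 in the IL-5 index. Activated against pre-stimulation cells gave -1.24 and -1.28, which became -0.92 without pre-stimulation cell 1 of the IL-13 index and -1.01 without pre-stimulation cell 4 of the IL-5 index. The same cells moved the smaller differences by the same log2 amount, which was more of their size. The 30 min to pre-stimulation ratio of 0.28 became 0.60 without IL-13 cell 1 and 0.17 without IL-13 cell 2, and that of 0.03 became 0.29 without IL-5 cell 4 and -0.06 without IL-5 cell 2. The silent to pre-stimulation ratios of -0.53 and -0.45 became -0.21 and -0.19 without cells 1 and 4 in turn. Counting only the first title date, on which all pre-stimulation cells lie, 30 min against pre-stimulation gave 0.33 and -0.06, activated against pre-stimulation -0.73 and -1.37, and silent against pre-stimulation -0.31 and -0.53.

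Tmsb4x held 57.0% of the reads of the 40 genes over all cells, Actb 9.67%, Pfn1 8.06%, Myl6 4.33% and Actg1 4.02%. Without Tmsb4x, Actb and Actg1 the summed share of the other 37 genes was 1.70%, 2.04%, 1.88%, 1.50%, 0.998% and 1.56% in the IL-13 index, and 1.86%, 1.55%, 1.53%, 1.23%, 0.983% and 1.39% in the IL-5 index, in the order of states used above. Activated cells were thus lowest without them too. The number of members with a read per cell, after thinning each of 113 cells to 100000 gene reads, had group medians of 22 to 29 and was 25 and 26 in activated cells.

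The actins are the subunits of the filament. Actb (chromosome 5, 142903115 to 142906754 of GRCm38, minus strand) was measured at 6809, 1582, 6950, 883 and 2982 CPM in the 5 pre-stimulation cells of the IL-13 index, and at 5321, 12701 and 22178 CPM (lowest, median and highest) in the 11 cells at 30 min, of which 9 were above all 5. Its summed level went from 4024 to 11748 CPM, a log2 ratio of 1.55 (1.50 to 1.59), and stood at 9243 CPM at 60 min, 7268 CPM at 90 min, 2339 CPM in activated and 2924 CPM in silent cells. Activated cells had 178.5, 2161 and 6182 CPM, and 10 of 11 lay below every 30 min cell, for a log2 ratio of -2.33 (-2.37 to -2.29).

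Among IL-5 cells the 5 pre-stimulation cells had 2017, 3011, 2870, 9232 and 3319 CPM of Actb, and the 30 min cells 1900, 5626 and 9537 CPM. The groups overlapped, and the summed levels were 4430 and 5074 CPM (log2 0.20), under the 2-fold size rule. Without pre-stimulation cell 4 the level before stimulation was 2898 CPM. The summed level of Actb was 4330 CPM at 60 min, 3271 CPM at 90 min, 1835 CPM in activated and 2999 CPM in silent cells. Actb fell by 1.47 on the log2 scale from 30 min to activated cells, with 5 of 11 activated cells below every 30 min cell.

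Actg1 (chromosome 11, 120345690 to 120348542, minus strand) differs from Actb in a few residues and shares much of its coding sequence with it. In pre-stimulation cells of the IL-13 index its levels were 1414, 942, 1050, 5.93 and 667 CPM, and at 30 min they were 903, 6298 and 13707 CPM, with 9 of 11 cells above all 5. The summed level rose from 855 to 6135 CPM, a log2 ratio of 2.84 (2.74 to 2.94, and from 2.57 to 3.21 with any 1 cell left out). It was 5115 CPM at 60 min, 2066 CPM at 90 min, 542 CPM in activated and 905 CPM in silent cells, and the fall from 30 min to activated cells was the second largest of any member at or above the minimum with reads in both groups of that comparison, at -3.50.

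In the IL-5 index Actg1 was at 1799, 1947, 631, 1194 and 9.34 CPM in pre-stimulation cells and at 600.2, 1687 and 12585 CPM at 30 min, where 4 of 10 cells lay above all 5. Its summed level rose from 1119 to 2351 CPM (log2 1.07, 0.99 to 1.16), but 1 cell, 30 min cell 1, held 39.7% of the 30 min reads and the ratio was 0.45 without it. Later levels were 1281, 1130, 728 and 1130 CPM at 60 min, at 90 min, in activated and in silent cells. The fall to activated cells was -1.69 with all cells, -1.07 without 30 min cell 1, -3.02 within the first title date and -0.18 within the second.

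**Figure D2:**
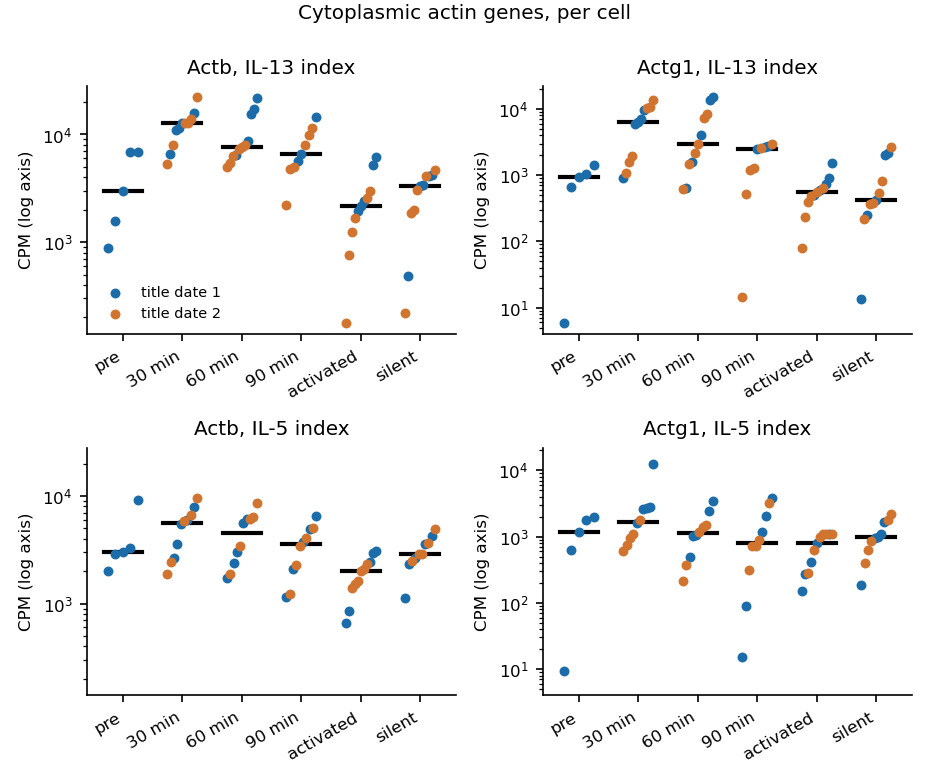
Actb and Actg1 in single cells by state (CPM, log axis, values under 3 CPM drawn at 3), for both indexes, with points coloured by title date and bars at medians. The median of Actb was 12701 CPM at 30 min for IL-13 and 5626 CPM for IL-5.

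The actin to thymosin balance was computed after the values were seen. Reads of both actins per read of Tmsb4x, summed over cells, were 0.118 before stimulation, 0.461 at 30 min, 0.313 at 60 min, 0.268 at 90 min, 0.208 in activated and 0.156 in silent cells with IL-13 as index. Medians over cells gave another order, at 0.110, 0.490, 0.232, 0.221, 0.310 and 0.126, with activated cells above those at 60 and 90 min. Summed ratios were 0.174, 0.218, 0.152, 0.186, 0.239 and 0.180 in the IL-5 index, with medians of 0.170, 0.180, 0.150, 0.226, 0.246 and 0.263. As a description, the actins were higher in the IL-13 than in the IL-5 index at 30 min (log2 1.21 for Actb and 1.38 for Actg1), at 60 min (1.09 and 2.00) and at 90 min (1.15 and 0.87), and the range on leaving out any 1 cell stayed above 0 in these 6. Before stimulation the same ratios were -0.14 (from -0.53 to 0.47 with any 1 cell left out) and -0.39 (-0.75 to 0.03), in silent cells -0.04 (-0.15 to 0.10) and -0.32 (-0.73 to -0.15), and in activated cells 0.35 (0.14 to 0.51) and -0.43 (-0.65 to -0.23), where the actins went opposite ways. Index and date cannot be told apart in these values.

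Among the monomer binding genes, Tmsb4x (chromosome X, 167207093 to 167209315, minus strand) was the most abundant member. Its pre-stimulation levels were 70885, 22936, 16468, 42242 and 40812 CPM in the IL-13 index and 29714, 23139, 32693, 50136 and 19524 CPM in the IL-5 index. At 30 min the cells had 17312, 34359 and 65392 CPM and 21048, 29279 and 52137 CPM. The groups overlapped, with 1 cell above all 5 pre-stimulation cells for IL-5 and none for IL-13. Activated cells had 1379, 12954 and 43352 CPM and 1855, 12043 and 18736 CPM, and in the IL-5 index all 11 lay below every pre-stimulation and every 30 min cell, against 8 of 11 in the IL-13 index. Silent cells spread widely, with 3420, 27651 and 40351 CPM and 7206, 18352 and 78254 CPM.

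The summed Tmsb4x level was 41450, 38797, 45913, 34798, 13864 and 24497 CPM over the 6 states of the IL-13 index and 31841, 34140, 36965, 23643, 10713 and 22938 CPM in the IL-5 index. It fell from 30 min to activated cells by 1.48 and 1.67 on the log2 scale, and from pre-stimulation to activated cells by 1.58 (1.18 without pre-stimulation cell 1) and 1.57. Tmsb10, a second thymosin, was lower in activated cells in both indexes against pre-stimulation (773 to 191 CPM, log2 -2.02, and 517 to 223 CPM, log2 -1.21) and against silent cells (609 CPM, log2 -1.68, and 826 CPM, log2 -1.89). Pre-stimulation cells of Tmsb10 had 772, 658, 637, 1238 and 602 CPM and 472, 486, 563, 747 and 219 CPM, and activated cells 36.6, 208 and 460 CPM and 33.5, 207 and 584 CPM.

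Pfn1 (chromosome 11, 70651850 to 70654644, minus strand) was at 4767, 6720, 5814, 3934, 3149 and 3887 CPM in the IL-13 index and at 5135, 3605, 3990, 2808, 2577 and 3687 CPM in the IL-5 index. Pfn1 was called once, lower in activated than in 30 min cells of the IL-13 index (-1.09, and -0.95 without activated cell 11). Cofilin 1 (Cfl1) was never called, with levels between 211 and 416 CPM in all 12 groups. The related Cfl2 and the monomer-binding Cap1 stayed under the minimum of 50 CPM over 2 groups in every comparison.

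**Figure D3:**
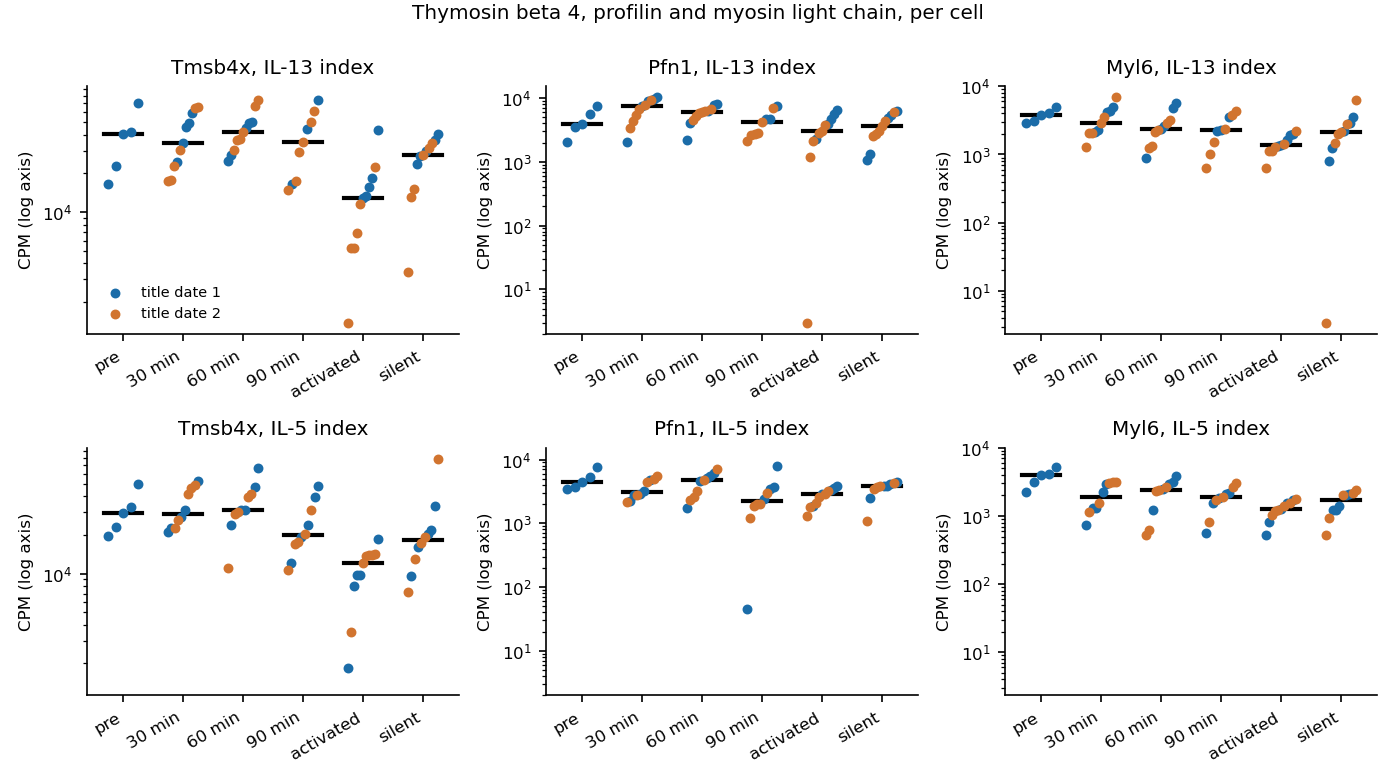
Tmsb4x, Pfn1 and Myl6 in single cells by state (CPM, log axis, values under 3 CPM drawn at 3), with points coloured by title date and bars at medians. Activated cells of both indexes lie below all 5 pre-stimulation cells for Myl6.

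Myosin light chain 6 (Myl6, chromosome 10, 128490860 to 128494145, minus strand), the essential light chain of non-muscle myosin II, separated activated from pre-stimulation cells without overlap. Pre-stimulation cells had 4034, 3857, 2932, 3152 and 4991 CPM in the IL-13 index and 5166, 3956, 2281, 4082 and 3142 CPM in the IL-5 index. Activated cells had 631, 1356 and 2210 CPM and 530.1, 1247 and 1758 CPM, so all 11 lay below all 5 in each index. How many of all genes separate these groups without overlap was not counted, for Myl6 or for other members. The summed levels were 3875, 3170, 2631, 2171, 1360 and 2293 CPM over the states of the IL-13 index and 3610, 2149, 2411, 1798, 1268 and 1667 CPM in the IL-5 index. The log2 ratio of activated to pre-stimulation cells was -1.51 (-1.57 to -1.45) in both indexes, and silent cells were also lower in the IL-5 index (-1.11).

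The regulatory light chain Myl12b was lower in activated than in pre-stimulation cells in both indexes, with summed levels of 1251 and 314 CPM (-1.99) and of 1445 and 496 CPM (-1.54). Its near copy Myl12a rose at 30 min in the IL-13 index (536 to 1440 CPM, 1.43) and fell from 30 min to activated cells in the IL-5 index (1407 to 695 CPM, -1.02, and -0.86 without 30 min cell 1). Because the genes are neighbours with near-identical coding sequence, the split of reads between them is uncertain. The heavy chain Myh9 was lower in activated than in 30 min cells in both indexes (125 to 32.3 CPM, and 88.7 to 32.2 CPM).

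The Arp2/3 complex holds Actr2, Actr3, Arpc1a or Arpc1b, Arpc2, Arpc3, Arpc4, and Arpc5 or Arpc5l. Actr3, 1 of its actin-related subunits, and Arpc5 were lower in activated than in 30 min cells in both indexes. Actr3 was at 63.3, 165, 152, 90.7, 62.6 and 157 CPM in the IL-13 index and at 359.7, 197, 110, 256, 64.6 and 78.9 CPM in the IL-5 index, so its pre-stimulation levels differed between indexes more than its later ones. Arpc5 was at 488, 642, 444, 438, 312 and 604 CPM and at 342, 573, 485, 575, 214 and 473 CPM. Arpc2, the central scaffold of the complex, was called in no comparison and lay between 263 and 669 CPM. Its pre-stimulation cells had 699, 1191, 649.5, 11.9 and 713 CPM and 150, 1044, 310, 873 and 621 CPM. Single cells thus spread more widely than its group levels differed, which does not give the uncertainty of those levels. Arpc3 was at 4.86 to 84.5 CPM and was also never called.

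Among activators and elongators of nucleation, Baiap2 (IRSp53, which links Rac to the WAVE complex) had 30 reads in 1 pre-stimulation cell of the IL-13 index and 0 in the 5 of the IL-5 index. At 30 min it had 394 CPM in 8 of 11 cells and 173 CPM in 9 cells, and in activated cells 0 reads in the IL-13 index and 18.0 CPM in 2 cells of the IL-5 index. Against the floor of 3 reads over the group, Baiap2 was at least 70.1-fold higher at 30 min than before stimulation in the IL-5 index and at least 419-fold lower in activated than in 30 min cells in the IL-13 index (227-fold without 30 min cell 10). Vasp, which elongates filaments at their growing ends, was at 20.7, 180.1, 220.5, 312, 164 and 88.4 CPM and at 144, 285, 140.2, 188, 40.7 and 94.9 CPM. At 90 min of the IL-13 index 1 cell, cell 9, held 78.4% of the reads, the median cell was at 34.3 CPM and the level was 78.6 CPM without that cell, and the pre-stimulation level of the IL-5 index was 71.8 CPM without cell 4. The indexes thus differed in activated against pre-stimulation cells, higher at 2.99 in the IL-13 index and lower at -1.82 (-0.82 without pre-stimulation cell 4) in the IL-5 index, while the difference between indexes was not tested. Wipf1 (which binds WASP) fell to 1 read at 30 min in the IL-13 index (log2 -6.75 with that read set to 3, unfloored interval -13.65 to -5.82, and -1.75 without pre-stimulation cell 4). That cell held 97.4% of the Wipf1 reads before stimulation. Without it the level was 3.77 CPM, and -1.75 reflects only the floor and the depths of the groups. Was itself was never at the minimum, Wasf2 was called in 1 comparison, and Evl was called once.

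Of the capping and coronin genes, Capzb (the beta subunit that caps growing ends) was higher at 30 min (282 to 674 CPM) and in silent cells (971 CPM) than before stimulation in the IL-13 index. Its levels in the IL-5 index were 676, 619, 475, 458, 486 and 631 CPM, and it was not called there. Capza1 and Capza2 were never called. Coro1a, the coronin of leukocytes, lay at 3.22 to 30.5 CPM, under the minimum throughout, and another gene overlaps its last 500 bases. Coro1b (204 CPM before stimulation in the IL-5 index) was lower in activated than in 30 min, pre-stimulation and silent cells of that index. Gsn had 0 reads in all 120 cells.

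Among the ERM linkers, moesin (Msn) was at 292, 492, 423, 270, 107 and 193 CPM and at 433, 371, 237, 296, 76.4 and 273 CPM, and fell from 30 min to activated cells in both indexes. Without pre-stimulation cell 3 and silent cell 11 of the IL-13 index those levels were 85.0 and 128 CPM. Its 30 min cells had 112, 353 and 1213 CPM in the IL-13 index and 0, 355 and 1036 CPM in the IL-5 index, against 0, 105 and 271 CPM and 0, 64.5 and 231 CPM in activated cells. Radixin (Rdx) was read in 1 pre-stimulation cell of the IL-13 index (29.0 CPM) and in none of the IL-5 index, and stood at 127 and 118 CPM at 30 min. Ezrin (Ezr) lay at 0 to 116 CPM, in 5 of 11 cells at 30 min of the IL-13 index. Rhoa, a small GTPase that acts on myosin, was at 112, 283, 159, 336, 136 and 280 CPM and at 186, 378, 301, 208, 137 and 226 CPM. Rac2, the Rac of blood cells, was never called and lay at 667 to 1377 CPM, and Cdc42 was never called either. Rac1 rose in the IL-13 index at 30 min (95.4 to 400 CPM, 2.07, and 1.37 without 30 min cell 9), and was higher in activated (1.39) and in silent cells (1.54) than before stimulation.

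To compare groups across all genes, a gene was called when its summed CPM differed by at least 2-fold, kept its direction on leaving out any 1 cell, and averaged 50 CPM or more across the pair of groups. This is a rule of size and no test. Shares of all genes called were computed for this rule with all cells and total reads only. Counts of members under other scalings, other minimums or with a cell left out have no such share beside them. Of the 339 group levels of members at 50 CPM or more, 73 (26 members) were lower by over 1.5 times without 1 cell, so levels of the less abundant members often rest on a single cell. Comparisons of an index share groups, so each is given by its own values. Ratios within a title date use part of the cells that made the call, so a kept direction is no separate support. Changing to edgeR's TMM factors moves the ratio of every gene by 0.02 to 0.24 for IL-13 and by 0.36, 0.11, 0.47, 0.38 and 0.09 for IL-5, in the order of the comparisons below, all upwards, and DESeq2's factors move it by -0.18 to 0.11, so called members keep their direction but their counts can move.

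**Figure D4:**
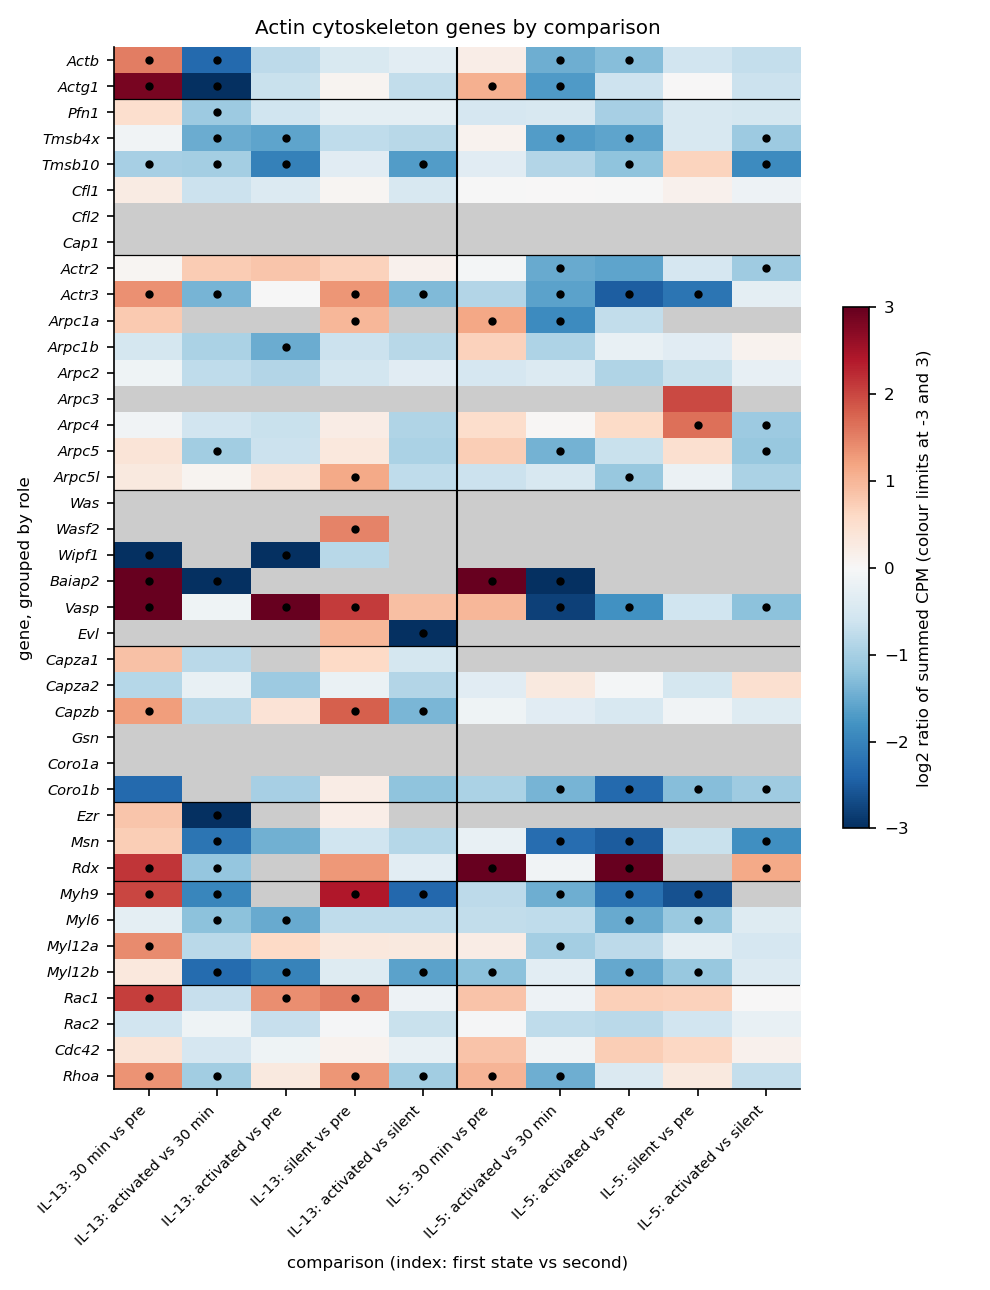
Log2 ratio of summed CPM for each of the 40 genes, by role, in the 10 comparisons, with colours limited at -3 and 3, dots on called values and grey where the mean lay under 50 CPM. In the columns of activated against 30 min cells, 15 and 14 members are called lower and none higher.

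At 30 min after the onset, against pre-stimulation cells, the actins and several regulators were higher in the IL-13 index, and fewer members moved in the IL-5 index. Of 32 members at the minimum in the IL-13 index, 11 (34.4%) were higher, against 24.8% of all genes tested, and 2 (6.25%) lower, against 23.0%. With IL-5 as the index 5 of 29 (17.2%) were higher, against 25.6%, and 1 (3.45%) lower, against 22.6%. The median log2 ratio of members was 0.45 in the IL-13 index against -0.23 over all genes, and -0.02 against -0.19 in the IL-5 index. Higher in both were Actg1, Baiap2, Rdx and Rhoa, 13.8% of the 29 members tested in both, against 12.5% of all genes. The largest rises in the IL-13 index were Baiap2 (3.66), Vasp (3.12) and Actg1 (2.84), with Rdx at 2.13 and Rhoa at 1.34. Baiap2 was 2.78 without 30 min cell 10, which put it below Vasp and Actg1, and Rac1 (2.07) was 1.37 without 30 min cell 9. For the IL-5 cells they were Baiap2, Rdx (at least 47.6-fold) and Arpc1a (1.15), with Rhoa at 1.02. The limit for Rdx was 28.5-fold without 30 min cell 7. The falls were Wipf1, whose call rests on pre-stimulation cell 4, and Tmsb10 (-1.01) in the IL-13 index and Myl12b (-1.23) in the IL-5 index. The actin rise in the IL-13 index kept over 2-fold without any cell, but Tmsb10 was -0.81 without pre-stimulation cell 4, Capzb 0.89 without pre-stimulation cell 5 and Rhoa 0.91 without 30 min cell 9. In the IL-5 index Rhoa was 0.90 and Actg1 0.45 without 30 min cell 1, Arpc1a 0.15 without 30 min cell 5 and Myl12b -0.96 without pre-stimulation cell 5. Leaving out pre-stimulation cell 4 gave 8 higher and 2 lower in place of 5 and 1 in the IL-5 index, and TMM factors gave 10 and 0. All called members kept their direction within the first title date.

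From 30 min to activated cells 15 members fell for IL-13 and 14 for IL-5, and none rose. With 29 members at the minimum in each index these were 51.7%, against 22.9% of all genes, and 48.3%, against 21.1%. Of all genes 23.9% and 15.4% were called higher, and members not called included Actr2 (0.76) and Arpc5l (0.08) for IL-13. The median log2 ratio of members was -1.01 against 0.13 over all genes in the IL-13 index and -0.92 against -0.004 in the IL-5 index. Lower in both indexes were Actb, Actg1, Tmsb4x, Actr3, Arpc5, Baiap2, Msn, Myh9 and Rhoa, 33.3% of the 27 tested in both, against 10.4% of all genes. They span actins, monomer binding, branching, membrane linkage and contraction. Falling most were Baiap2, Ezr (-3.73) and Actg1 in the IL-13 index and Baiap2 (-3.27), Vasp (-2.81) and Msn (-2.28) in the IL-5 index. Msn was at -2.20 in the IL-13 index, and the falls of the others in the 2 indexes were -1.40 and -1.61 for Actr3, -1.04 and -1.42 for Arpc5, -1.96 and -1.46 for Myh9, and -1.05 and -1.46 for Rhoa. Myl12b (-2.32) and Myl6 (-1.22) were called in the IL-13 index, where they were 1563 and 3170 CPM at 30 min.

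Some of these calls rested on 1 cell. For IL-13 Ezr was -2.05 without 30 min cell 9, Pfn1 -0.95 without activated cell 11, Tmsb10 -0.86 without 30 min cell 2, Arpc5 -0.80 without 30 min cell 8, Rdx -0.66 (from -1.15) without 30 min cell 6 and Rhoa -0.63 without 30 min cell 9. On the IL-5 side Actr2 was -0.55 (from -1.51) without 30 min cell 11, Arpc1a -0.89 (from -1.89) without 30 min cell 5, Coro1b -0.38 (from -1.39) without 30 min cell 7, Myh9 -0.89 without 30 min cell 9 and Myl12a -0.86 without 30 min cell 1. Within the first title date 14 of the 15 called in the IL-13 index kept the direction and 8 passed 2-fold, and within the second 15 and 14 did. With IL-5 as the index 14 of 14 kept the direction in each date and 12 passed 2-fold in each.

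**Figure D5:**
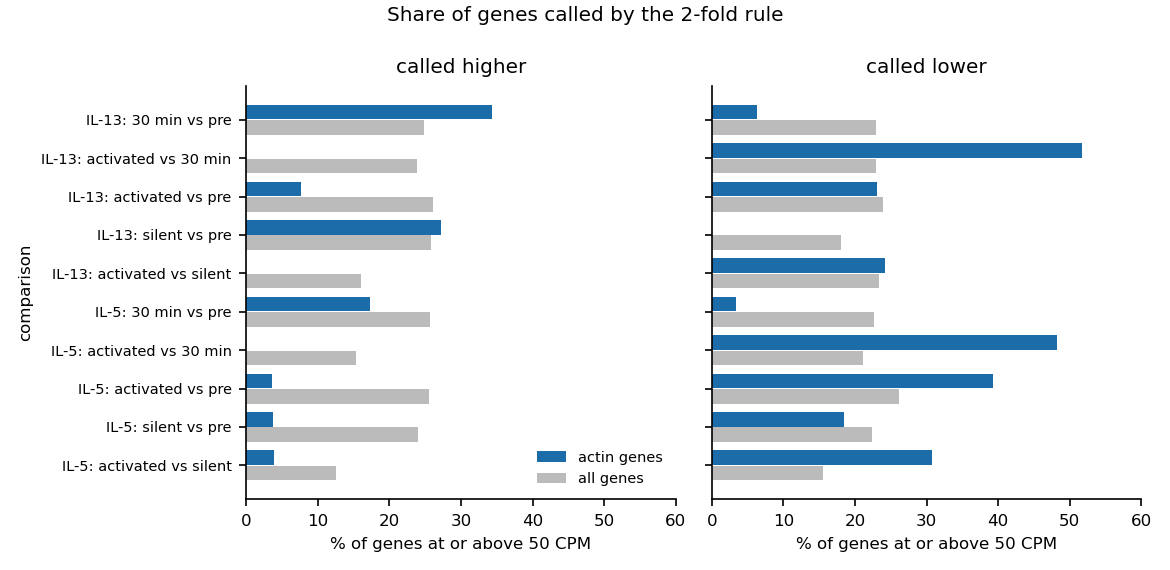
Percent of actin cytoskeleton genes and of all genes tested that were called higher or lower in each of the 10 comparisons. Bars start at 0. Members called lower in activated against 30 min cells reach 51.7% and 48.3%, against 22.9% and 21.1% of all genes.

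Against pre-stimulation cells, activated cells were lower in the thymosins Tmsb4x and Tmsb10 and in the myosin light chains Myl6 and Myl12b in both indexes. The third light chain, Myl12a, was called in neither (0.61 and -0.78). In the IL-13 index 2 of 26 members (7.69%) were higher, against 26.1% of all genes, and 6 (23.1%) lower, against 23.9%. In the IL-5 index 1 of 28 (3.57%) was higher, against 25.5%, and 11 (39.3%) lower, against 26.1%. The median log2 ratio of members was -0.66 against -0.15 over all genes, and -0.85 against -0.32. Lower in both were Tmsb4x, Tmsb10, Myl6 and Myl12b, 16.0% of the 25 tested in both, against 10.5% of all genes. The share lower in the IL-13 index was near that of all genes. The largest falls were Wipf1 (-5.78, and -0.78 without pre-stimulation cell 4), Tmsb10 and Myl12b in the IL-13 index, and Msn (-2.50), Actr3 (-2.48) and Coro1b (-2.33, and -1.17 without pre-stimulation cell 1) in the IL-5 index. The rises were Vasp and Rac1 in the IL-13 index and Rdx (at least 44.5-fold, 110 CPM in activated cells) in the IL-5 index. Arpc1b (-1.49) was -0.85 without pre-stimulation cell 3. Among IL-5 cells Actb (-1.27) was -0.66 and Tmsb10 -0.99 without pre-stimulation cell 4, Arpc5l (-1.14) was -0.54 without pre-stimulation cell 3, and Myh9 (-2.25) was -0.81 without pre-stimulation cell 2. With TMM factors the IL-5 split of 1 higher and 11 lower became 4 and 8. All called members kept their direction within the first title date.

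Against pre-stimulation cells, the 9 members called in silent cells were higher for IL-13, while 5 of 6 were lower for IL-5. For IL-13 9 of 33 members (27.3%) were higher, against 25.8% of all genes, and none lower, against 18.0%. On the IL-5 side 1 of 27 (3.70%) was higher, against 24.0%, and 5 (18.5%) lower, against 22.4%. The 27.3% higher for IL-13 and the 18.5% lower for IL-5 were thus near the shares of all genes. The median log2 ratio of members was 0.21 against 0.05 over all genes, and -0.47 against -0.16. Of the 26 members tested in both, none was called the same way in both, against 9.44% (higher) and 5.57% (lower) of all genes. Actr3 (1.31 and -2.19) and Myh9 (2.40 and -2.60) were called in opposite directions, as were 5.72% of all genes. The largest rises in the IL-13 index were Myh9, Vasp (2.09) and Capzb (1.78). In the IL-5 index Arpc4 rose (1.66, 182 to 575 CPM), and the largest falls were Myh9, Actr3 and Coro1b (-1.28). Myh9 in the IL-5 index was -1.16 without pre-stimulation cell 2, and Coro1b was -0.11 without pre-stimulation cell 1. Myl12b (-1.13) was -0.85 without pre-stimulation cell 5. In the IL-13 index Wasf2 (1.50) was 0.38 without silent cell 6, Arpc1a (1.01) was 0.55 without silent cell 7 and Arpc5l (1.14) was 0.79 without pre-stimulation cell 1. With TMM factors the IL-5 split of 1 higher and 5 lower became 4 and 2. Within the first title date 8 of 9 members called in the IL-13 index and 6 of 6 in the IL-5 index kept the direction.

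Against silent cells, which had the same stimulus, activated cells were lower in Tmsb10 in both indexes, 3.85% of the 26 members tested in both, which is near the 4.96% of all genes. For IL-13 none of 29 members was higher, against 16.1% of all genes, and 7 (24.1%) were lower, against 23.3%. For the IL-5 cells 1 of 26 (3.85%) was higher, against 12.6%, and 8 (30.8%) lower, against 15.6%. The median log2 ratio of members was -0.77 against -0.12 over all genes, and -0.51 against -0.07. Other members were called lower in 1 index each. The largest falls were Evl (-5.48, 153 to 3.44 CPM), Myh9 (-2.35) and Tmsb10 in the IL-13 index, and Tmsb10, Msn (-1.84) and Vasp (-1.22) in the IL-5 index. Rdx was the member higher in the IL-5 index (1.13). The share lower in the IL-13 index was again near that of all genes, and it became 11 members without activated cell 4 or silent cell 10, and 10 (with 1 higher) without activated cell 5. TMM factors made that split 1 higher and 6 lower. Evl was -3.83 without silent cell 6, and Rhoa (-1.04) was -0.86 without silent cell 9. Among IL-5 cells Tmsb4x (-1.10) was -0.78 without silent cell 10, Vasp -0.95 without silent cell 11, Actr2 (-1.06) -0.46 and Coro1b (-1.06) -0.62 without silent cell 3, Arpc4 (-1.09) -0.68 and Arpc5 (-1.15) -0.91 without silent cell 2, and Rdx 0.80 without activated cell 4. All called members kept their direction in each title date, each of which holds part of the cells that made the call.

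Across the 10 comparisons 28 of the 35 members at the minimum in any were called at least once (80.0%), near the 79.0% of all genes. A further 7 were at the minimum in some comparison and never called, namely Arpc2, Arpc3, Capza1, Capza2, Cdc42, Cfl1 and Rac2, and 5 were under the minimum throughout, namely Cap1, Cfl2, Coro1a, Gsn and Was. Members with the same sign in both indexes made up 81.5% of those tested in both for activated against 30 min cells, against 70.2% of all genes. For the other comparisons these shares were 58.6% against 61.2% (30 min to pre-stimulation), 68.0% against 70.8% (activated to pre-stimulation), 65.4% against 57.1% (silent to pre-stimulation) and 69.2% against 61.2% (activated to silent). The 2 indexes share no cells.

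A second list of 59 cytoskeletal genes outside the 40, most of them actin regulators, had more called lower than higher in all 10 comparisons. It includes vimentin (Vim), an intermediate filament protein, which was called lower in 7 of them, and the statement holds for the other 58 genes as well. At 30 min against pre-stimulation, 1 of 23 was higher and 7 (30.4%) lower in the IL-13 index, against 23.0% of all genes lower, and 4 and 7 (29.2%) of 24 in the IL-5 index, against 22.6%. Filamin A (Flna, a cross-linker, -2.33 and -3.85), the Rac exchange factor Vav1 (-4.03 and -5.79) and Gmfg (which dismantles Arp2/3 branches, -2.12 and -1.84) were lower in both. Leaving out single pre-stimulation cells brought Flna to -1.65 (IL-13 cell 4) and -3.02 (IL-5 cell 2), Vav1 to -3.38 (IL-13 cell 1) and -4.29 (IL-5 cell 2), and Gmfg to -1.03 (IL-5 cell 4).

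From 30 min to activated cells 9 of 20 (45.0%) were lower and 1 higher, against 22.9% of all genes lower, and 7 of 17 (41.2%) and 1, against 21.1%. Tropomyosin 4 (Tpm4, -3.47 and -3.03), Cotl1 (-2.56 and -1.52) and the kinase Rock1 (-1.19 and -2.93) were lower in both, and Rock1 was -1.68 without 30 min cell 11 of the IL-5 index and -0.75 for IL-13 at the weakest. Activated against pre-stimulation cells had 9 of 24 (37.5%) lower and 1 higher, against 23.9% lower, and 11 of 19 (57.9%) lower and none higher, against 26.1%. Vim (-3.27 and -4.56), Gmfg (-5.00 and -1.28) and Vav1 (-1.92 and -3.91) were lower in both, but Gmfg was -0.46 without pre-stimulation cell 4 of the IL-5 index, and Vav1 was -1.27 without IL-13 cell 1 and -2.41 without IL-5 cell 2.

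Silent against pre-stimulation cells had 5 of 27 (18.5%) lower and 2 higher, near the 18.0% of all genes lower, and 5 of 20 (25.0%) and 1, near 22.4%. Flna (-3.02 and -1.90), Gmfg (-3.41 and -1.09) and Vim (-1.32 and -1.90) were lower in both, but Gmfg was -0.28 without pre-stimulation cell 4 of the IL-5 index, Flna was -2.34 and -1.07 without IL-13 cell 4 and IL-5 cell 2, and Vim was -0.93 for IL-13 at the weakest. Activated against silent cells had 11 of 27 (40.7%) lower, against 23.3%, and 8 of 18 (44.4%), against 15.6%, and none higher. Vav1 (-1.88 and -3.54) and the GDP dissociation inhibitor Arhgdib (-1.08 and -1.01) were lower in both, with Vav1 at -1.10 without silent cell 6 of the IL-13 index and at -2.48 without silent cell 8 of the IL-5 index, and Arhgdib at -0.93 and -0.90 at the weakest.

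Leaving out 1 cell also enlarged called ratios of members by over 1.5 times. Without pre-stimulation cell 1 of the IL-13 index the 30 min ratio was 6.56 for Baiap2, 4.93 for Rdx, 2.24 for Rhoa and 2.03 for Actr3, and the silent ratio 4.35 for Wasf2, 4.28 for Arpc1a, 2.23 for Rhoa and 1.96 for Actr3. Without cell 3 the 30 min ratio was 3.84 for Myh9, 3.11 for Rac1 and 2.94 for Capzb, the silent ratio 4.23, 2.58 and 3.47 for the same genes, and the activated ratio 2.43 for Rac1. Without cell 5 Vasp was 5.49, 5.36 and 4.46 in 30 min, activated and silent cells, and Arpc5l 5.10 in silent cells. In the IL-5 index Arpc1a was 3.23 at 30 min without pre-stimulation cell 4, and Arpc4 3.07 in silent cells without pre-stimulation cell 3.

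Some falls became larger as well. Against 30 min cells of the IL-13 index, activated cells gave -4.49 for Ezr without cell 6, -1.92 for Rdx without cell 7, and -2.65 and -2.63 for Myh9 without cells 10 and 11 (-3.05 and -3.03 against silent cells). Against pre-stimulation cells Wipf1 was -6.90 without activated cell 9, and against silent cells Evl was -7.24 without activated cell 5. For IL-5, leaving out activated cells gave -4.96 for Baiap2 (cell 3), -2.55 for Actr3 (cell 4; -3.42 against pre-stimulation), -2.69 and -2.48 for Arpc1a (cells 5 and 7) and -2.15 for Actr2 (cell 6; -1.70 against silent cells). Leaving out IL-5 silent cells gave -2.83 for Actr3 (cell 10) and -3.95 for Myh9 (cell 9) against pre-stimulation, and 1.76 and 1.94 for Rdx (cells 4 and 6) in activated cells. These ratios are log2 values. Falls of the second list also became larger without 1 cell, as with Vim at -8.08 (IL-13 activated cell 11, against pre-stimulation) and -7.90 (IL-13 silent cell 8), and Tpm4 at -4.73 and -7.24 (IL-13 activated cell 5 and IL-5 activated cell 11, against 30 min).

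As a description over 114 cells, the log2 levels of Actb correlated with those of Actg1 (r = 0.41) and Pfn1 (r = 0.43) after each group's mean was removed, and those of Tmsb4x with Myl6 (r = 0.39). The other 2 pairs computed, Actb with Tmsb4x and Tmsb4x with Pfn1, gave r = 0.18 and r = 0.20. Cells share groups, pools and the scaling to total reads, and a weak correlation of such counts is no finding.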

How the data were processed

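The authors deposited raw counts of reads for each gene, 1 file per cell. Per the study's methods and the labels, the authors made libraries with a SMART-Seq v4 3′ kit, pooled 5 or 6 of them, aligned reads to GRCm38 with TopHat and counted genes with HTSeq. The submitters' processing notes list TopHat2, mm10 and GRCh38. The strand setting and annotation release are not given in the sources used here. Gene reads exclude the 5 HTSeq summary entries, which held 38.0% of alignments (28.7% were not unique, and how many of these belong to near-identical genes such as Actb and Actg1 was not measured). Another gene overlaps the last 500 bases of 12 members, namely Cfl1, Cap1, Arpc1b, Arpc4, Evl, Coro1a, Coro1b, Ezr, Myl12a, Myl12b, Rac1 and Rhoa, whose reads without strand cannot be told apart from it. The files hold 0 ERCC entries.

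Cells were grouped by index and state from the labels. The 40 members, the second list of 60 genes (59 in the files) and the rule for named genes were chosen with earlier results of these data known. Named were 12 fixed members, members called in both indexes in 1 direction, and up to 3 of the largest rises and falls per comparison and index. Symbols came from the reference annotation (45143 of 46078 identifiers). CPM of summed counts have exact 95% Poisson intervals, and log2 ratios have exact (Clopper-Pearson) counting intervals. A group under 3 reads was set to 3. Depth limits low members, since 3 reads are the floor of a group. The 6 cells under 84667 gene reads, which is the median divided by 3, entered the sums and the medians given for all cells only. Correlations used log2(CPM + 1). The code was checked on simulated counts. No test and no p-value was computed. edgeR 4.0.16 and DESeq2 1.42.0 (R 4.3.3) gave scaling factors only, and Python 3.11.15, with scipy 1.17.1, numpy 2.4.6, matplotlib 3.10.9 and pandas 2.3.3, did the rest. Alternatives were other scalings, CPM minimums of 10, 200 or none, the mean over cells, 1 title date alone, shallow cells left out, the sum without Tmsb4x or the actins, and each cell left out. The second title date alone and the sums without Tmsb4x or the actins were chosen after seeing the data, as were the list of cells whose removal moves a ratio or a group's level by over 1.5 times and the second list without Vim.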

Additional observations from a re-analysis of the deposited data

Results flagged for a closer look

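In the 5-cell pre-stimulation groups, 26 sets of values (12 members and the summed share, in each index) were checked for a cell whose gap to the nearest other cell was large for the range of the group, and 7 were found. In independent, normally distributed values about 1 in 20 would be flagged. These sets share cells and some hold zeros, so their number is not compared with that rate. Larger groups were not checked.

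In the IL-13 index Tmsb10 was 1238 CPM in pre-stimulation cell 4, with the next cell at 772 CPM, and Ezr was 291 CPM in cell 3, with the next at 55.6 CPM. In the IL-5 index cell 4 had 8.52% of its reads in the 40 genes (next 5.26%), 9232 CPM of Actb (next 3319 CPM) and 276 CPM of Ezr, which had 0 reads in the other 4 cells. Coro1a was 60.4 CPM in cell 3 (next 27.3 CPM) and Rac2 was 2273 CPM in cell 2 (next 969 CPM). The log2 ratio of Actb in activated against pre-stimulation cells of the IL-5 index was -1.27 with cell 4 and -0.66 without it.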

How the results depend on the processing

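The 10 lowest and 10 highest leave-one-out values of the summed-share ratios set the range used here, so they lie within it. With them counted, 81 recomputed log2 ratios of the summed share moved by less than that range and 23 by more. With TMM factors they were -0.53 (activated to silent, IL-13) and, in the IL-5 index, 0.39 (30 min to pre-stimulation), -1.19 (activated to 30 min), -0.80 (activated to pre-stimulation) and -0.071 (silent to pre-stimulation). With DESeq2 factors they were -1.71 (activated to 30 min) and -0.66 (silent to pre-stimulation), both IL-13. The first title date alone gave -1.06, -0.73 and -0.42 (activated to 30 min, to pre-stimulation and to silent, IL-13) and -1.37 (activated to pre-stimulation, IL-5), and the second -1.97 and -1.06 (activated to 30 min and to silent, IL-13). Without Tmsb4x the values were 0.81, -0.76, -0.17 and -0.59 in the IL-13 index (30 min, activated and silent to pre-stimulation, activated to silent) and -0.073, -0.89, -0.96 and -0.54 in the IL-5 index (30 min to pre-stimulation, activated to 30 min, to pre-stimulation and to silent). Without both actins they were 0.019 (30 min to pre-stimulation) and -1.31 (activated to 30 min), IL-13. Over all cells, shallow ones included, the median share per cell without Tmsb4x, Actb and Actg1 was 1.60%, 1.97%, 1.83%, 1.57%, 0.953% and 1.50% over the IL-13 states and 1.70%, 1.44%, 1.52%, 1.17% and 0.998% from pre-stimulation to activated in the IL-5 index.

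Leaving out each cell gave summed-share ratios for IL-13 between 0.17 and 0.60, -1.68 and -1.42, -1.39 and -0.92, -0.64 and -0.21, and -0.86 and -0.61. For IL-5 they lay between -0.06 and 0.29, -1.37 and -1.22, -1.37 and -1.01, -0.63 and -0.19, and -0.88 and -0.64, in the order 30 min to pre-stimulation, activated to 30 min, activated to pre-stimulation, silent to pre-stimulation and activated to silent. Counts of called members ranged over 10 to 15, 11 to 17, 8 to 12, 7 to 9 and 7 to 11, and over 4 to 10, 12 to 16, 8 to 16, 4 to 7 and 6 to 10, in that order.

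Counts of called members moved with the CPM minimum, which sets how many genes are tested. A minimum of 200 left 7, 5, 1 and 4 in the IL-13 index (30 min, activated and silent to pre-stimulation, activated to silent) and 3, 7, 7 and 4 in the IL-5 index (30 min to pre-stimulation, activated to 30 min, to pre-stimulation and to silent). A minimum of 10 gave 14 and 14 (activated to pre-stimulation and to silent, IL-13) and 11 (silent to pre-stimulation, IL-5). No minimum gave 14 and 16 for the same IL-13 comparisons and 20, 12 and 14 in the IL-5 index (activated and silent to pre-stimulation, activated to silent). TMM factors gave 10 (30 min to pre-stimulation, IL-5). Of the recomputed ratios of members, 1150 moved little, 164 moved more and 2 reversed, both on the first title date alone, Rdx to 0.96 (activated to 30 min) and Arpc1a to -1.51 (silent to pre-stimulation), both IL-13. The 1150 include the leave-one-out values, which set the range and could not fall outside it. Where no cause is given, the cause was not tested. The title date was not used as a block, as no result comes from a test, and ratios within a title date stand beside the results.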
